A study of Mus musculus with 10 samples.

Results

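The members are 53 cell cycle genes out of the 31053 genes counted, 26 of them used by cells in S phase, when DNA is copied, and 27 used in mitosis, when the copies are separated. The list gives them by name, with no threshold on a measured value, and all 53 were found in the gene table. The members are measured here in E0771 tumors, grown from a mouse mammary carcinoma line, in the tumor cells themselves and in the T cells, macrophages and stromal cells around them. Female EC-AGO1-KO mice, in which a VE-Cadherin promoter drives Cre recombinase and both Ago1 alleles are floxed, were compared with their WT littermates. All were 16 weeks old on a C57BL/6 background and received the same E0771 cells in the fourth mammary fat pad. Tumors were taken on day 21. The deletion is meant for endothelial cells alone, so tumor cells, T cells and macrophages were to keep Ago1 in both groups. The 5 WT libraries held 1 tumor each, and the 5 KO libraries held 7 tumors, because KO tumors under 50 mm3 were pooled (libraries KO 2+3 and KO 5+6). In batch 1, as the labels call it, each group had 1 library, and in batch 2 each had 4. Each library stood as 1 sample in every test, and cells were not counted as replicates.

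A dividing cell passes through S phase, a gap phase and mitosis in order. The genes for copying DNA, such as those of the Mcm helicase and the sliding clamp Pcna, are switched on by E2F factors as the cell leaves G1. The genes for mitosis, such as cyclin B, its kinase Cdk1, the kinetochore proteins and Mki67 (the antigen that Ki67 staining detects), follow later through the DREAM and MuvB-FOXM1 complexes, which act at CHR elements often found with CCAAT boxes.

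The promoters of 4 members, Mcm5, Pcna, Mki67 and Top2a, are shown because they hold these letters in different ways. All 4 are followed in tumor-like cells below, and some of them in the other classes. Each run is 300 bases of RefSeq sequence (GRCm38.p6), from 250 before to 50 after the transcript start, on the strand of the gene. Mcm5 encodes a helicase subunit and its window is at chr8:75109259-75109558 on the plus strand. The windows on the minus strand are those of Pcna at chr2:132253131-132253430, of Mki67 at chr7:135716330-135716629 and of Top2a, which encodes the topoisomerase that untangles copied DNA, at chr11:99024140-99024439. Capitals mark matches on either strand to an E2F motif (TTTCCCGC or TTTGGCGC), the CHR (TTTGAA) or CCAAT. 
Mcm5: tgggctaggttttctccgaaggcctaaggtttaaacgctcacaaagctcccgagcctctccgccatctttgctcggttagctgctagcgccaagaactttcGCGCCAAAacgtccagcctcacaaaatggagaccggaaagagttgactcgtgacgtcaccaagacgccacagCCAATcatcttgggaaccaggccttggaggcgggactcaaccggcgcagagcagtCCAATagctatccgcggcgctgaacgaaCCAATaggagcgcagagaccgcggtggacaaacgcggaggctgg
Pcna: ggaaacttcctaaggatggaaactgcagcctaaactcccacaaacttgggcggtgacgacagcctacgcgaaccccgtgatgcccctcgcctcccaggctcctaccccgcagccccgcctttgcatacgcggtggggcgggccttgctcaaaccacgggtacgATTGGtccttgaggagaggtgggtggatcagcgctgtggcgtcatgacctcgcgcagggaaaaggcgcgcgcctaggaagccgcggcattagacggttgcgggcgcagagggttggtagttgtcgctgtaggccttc
Mki67: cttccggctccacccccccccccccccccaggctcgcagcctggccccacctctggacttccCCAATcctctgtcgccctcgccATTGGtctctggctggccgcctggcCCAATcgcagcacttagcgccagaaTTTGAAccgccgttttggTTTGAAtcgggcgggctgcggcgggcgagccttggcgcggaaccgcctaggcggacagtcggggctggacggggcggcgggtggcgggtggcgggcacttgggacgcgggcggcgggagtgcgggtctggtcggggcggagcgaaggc
Top2a: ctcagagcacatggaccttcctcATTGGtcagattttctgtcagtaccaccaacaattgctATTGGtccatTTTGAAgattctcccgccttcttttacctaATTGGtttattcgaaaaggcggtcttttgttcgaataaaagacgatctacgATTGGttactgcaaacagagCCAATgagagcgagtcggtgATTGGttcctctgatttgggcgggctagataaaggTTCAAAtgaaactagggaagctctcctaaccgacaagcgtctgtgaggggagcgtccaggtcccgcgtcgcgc
Mcm5 held 1 E2F match and 3 CCAAT matches, and Pcna 1 CCAAT match. Mki67 held 2 CHR matches and 3 CCAAT matches, and Top2a 2 CHR matches and 6 CCAAT matches.

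Over all members with a promoter in the RefSeq table (23 of the 26 S-phase genes with 25 windows, and 24 of the 27 mitotic genes with 24 windows), the lists differed in these letters. The E2F letters were in 9 of 25 S-phase windows (36%), among them those of Mcm3, Mcm5, Mcm6, Mcm7, Cdc6, Cdt1 and Pola1, in 0 of 24 mitotic windows and in 1.56% of all 32851 promoters. The CHR letters were in 17 of 24 mitotic windows (70.8%), in 3 of 25 S-phase windows (12%) and in 17.9% of all promoters. CHR and CCAAT stood together in 14 mitotic windows (58.3%), including those of Cdk1, Ccnb2, Plk1 and Aurka, against 6.95% of all promoters. CCAAT alone was as frequent in S-phase windows (76%) as in mitotic windows (70.8%), with 37.4% of all promoters holding it. All motifs were searched on both strands, and matches to different motifs may overlap. A match is a match of letters and no more.

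The libraries held between 8323896 and 10591577 UMIs, where a UMI is the tag that marks 1 captured RNA molecule. Cells were barcodes in which 200 to 7000 genes were seen and no more than 10% of UMIs were mitochondrial, 65298 in all, with a median of 3862 and 4049 UMIs per cell in batch 1 and 595 to 1142 in batch 2. Of 64765 barcode sequences, 532 were in more than 1 library. Cells were grouped without the members and named only from marker genes, which gave 55623 tumor-like, 1131 T-like, 2501 myeloid-like (macrophage and monocyte) and 869 stromal-like cells (endothelial, fibroblast and pericyte). In batch 2, T-cell markers were at 3813 to 8007 CPM (counts of UMIs per 1000000) in T-like and at 18.2 to 33.3 in tumor-like cells, and myeloid markers at 1921 to 2838 in myeloid-like and at 16.8 to 28.9 in tumor-like cells. Of the T-like cells, 443 came from library KO 2+3 and 25 from WT 4, and the stromal-like cells of batch 1 numbered 23 and 16. Ago1 had 372 UMIs in all kept cells together, and its log2 fold change, KO vs WT, was 0.08 (edgeR adjusted p = 0.947). Because the deletion is in a cell type that few of these cells belong to, this value does not check the labels. Totals for these levels are those of the class in a library without Actb, and levels are not scaled to gene length.

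In tumor-like cells the S-phase and mitotic genes stood at nearly the same summed level in WT and KO tumors. In batch 2 the 26 S-phase genes together were at 1767, 1754, 1874 and 1854 CPM in the WT libraries and at 1745, 1847, 1750 and 1699 in the KO libraries. The means were 1812 ± 60.7 and 1761 ± 62.2 (SD, n = 4 each), and the ranges overlapped. In batch 1 they were at 1056 in WT and 1166 in KO. The 27 mitotic genes were at 2307, 2236, 2250 and 2176 in WT and at 2133, 2249, 2327 and 2140 in KO libraries of batch 2, with means of 2242 ± 54.0 and 2212 ± 92.9. In batch 1 they were at 2360 and 2518. The KO library lay above the WT library in batch 1 and the KO mean below the WT mean in batch 2, for both lists. A summed level of this kind cannot tell a smaller share of dividing cells from less of these RNAs in each dividing cell.

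**Figure D1:**
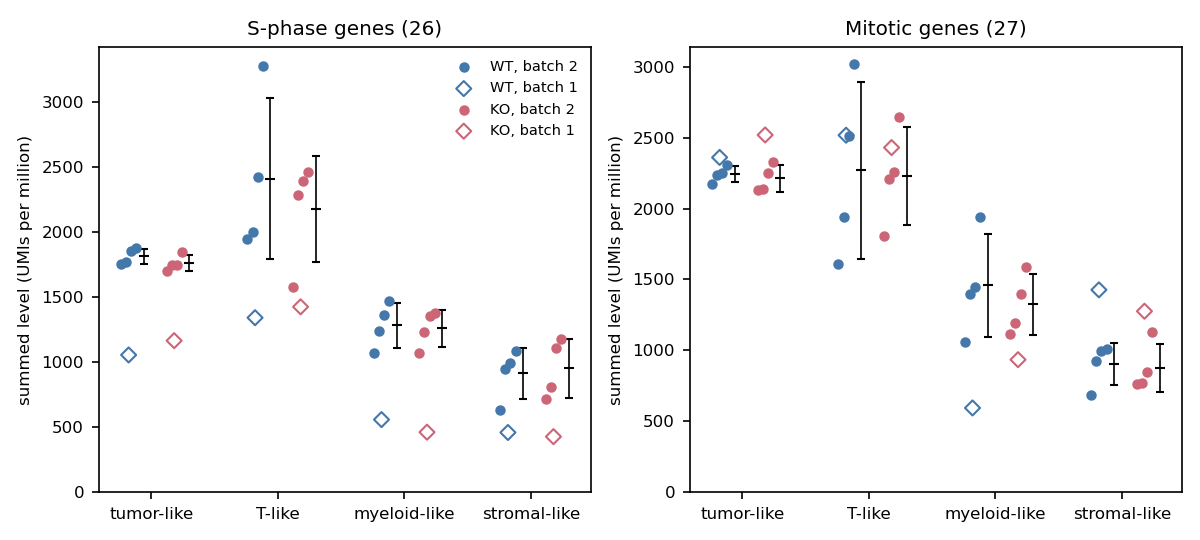
Summed level of the 26 S-phase genes and of the 27 mitotic genes (y axis, CPM without Actb) in each library, by cell class (x axis), with WT in blue, KO in red circles for batch 2, diamonds for batch 1 and black bars for the mean and SD of batch 2. Tumor-like and T-like cells lie highest, batch 2 lies above batch 1 for the S-phase genes, and WT and KO points overlap in batch 2 in every class.

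The test gene by gene, edgeR's quasi-likelihood test on UMIs summed per library with batch as a term, called none of the 53 members in tumor-like cells at an adjusted p under 0.05. Over all 11605 genes tested in these cells, 0% were called. At an unadjusted p under 0.05 there were 0 members and 694 genes, and DESeq2 called 0 members and 0 genes. In all kept cells together the test also called 0 of 53 members and 0% of 12450 genes. There, 3 members and 1102 genes had an unadjusted p under 0.05, and DESeq2 called 0 members and 2 genes. Of the 53 members in tumor-like cells, 28 had a value above 0 and 25 below, with a median log2 fold change of 0.01 for the S-phase genes and -0.00 for the mitotic genes, beside 0.00 for all genes tested. The 95% intervals say how large a difference the tumor-like cells could still hide. All 53 lay inside a 2-fold change in either direction, and 49 inside a 1.5-fold change.

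Mki67 was at 31.2 CPM in the WT and 32.5 in the KO library of batch 1. In batch 2 it was at 20.5, 14.99, 20.9 and 19.95 in the WT libraries and at 17.6, 24.2, 20.4 and 19.6 in the KO libraries. The groups overlapped, and the log2 fold change was 0.04 (SE 0.137, edgeR adjusted p = 0.974, 95% interval -0.25 to 0.33). The gene lies on the minus strand at chr7:135689784-135716361 (GRCm38).

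Top2a, the second most abundant mitotic member after the condensin gene Smc4, was at 349 in the WT and 372 in the KO library of batch 1. In batch 2 it was at 342, 338, 263 and 262 in WT and at 302, 407, 307 and 268 in KO. The KO 2+3 library was the highest of all. The log2 fold change of Top2a was 0.05 (SE 0.130, edgeR adjusted p = 0.968), and without library KO 2+3 it was -0.07.

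Of the genes for DNA copying, Pcna was at 27.4 and 27.7 in batch 1, at 12.9, 19.1, 19.4 and 26.7 in the WT libraries of batch 2 and at 24.4, 22.4, 17.5 and 27.4 in the KO libraries. Its log2 fold change was 0.14 (SE 0.178, edgeR adjusted p = 0.922). Mcm5 was at 23.8 and 28.8 in batch 1, at 13.5, 17.5, 21.3 and 19.4 in WT and at 17.0, 18.1, 13.3 and 15.9 in KO, with a log2 fold change of -0.10 (SE 0.158, edgeR adjusted p = 0.934). WT and KO libraries overlapped for both genes.

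The member with the smallest p in tumor-like cells was Dtl, which encodes the adaptor that sends Cdt1 for destruction in S phase. Dtl was at 49.0 and 44.7 in batch 1, at 155, 135, 252 and 159 in the WT libraries of batch 2 and at 109, 143, 164 and 141 in the KO libraries. Library WT 4 stood above the other 9, and 2 of the 4 KO libraries lay within the range of the other WT libraries. Its log2 fold change was -0.35 (SE 0.165, edgeR adjusted p = 0.825). The next 4 were Hells, a chromatin remodeller (-0.20, SE 0.111, edgeR adjusted p = 0.829), Mcm3, a helicase subunit (0.23, SE 0.131, adjusted p = 0.830), Ttk, the spindle checkpoint kinase (-0.31, SE 0.177, adjusted p = 0.830), and Hmmr, a spindle protein (-0.19, SE 0.113, adjusted p = 0.832).

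**Figure D2:**
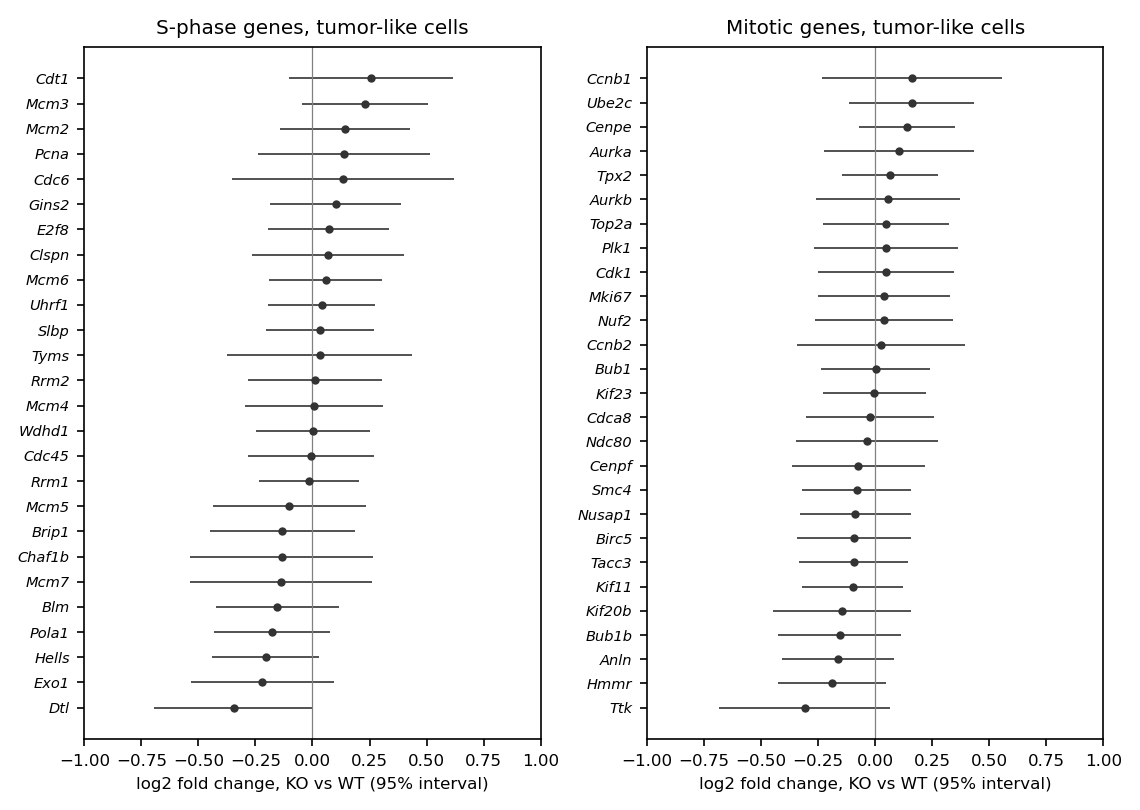
Log2 fold change, KO vs WT, of each S-phase and each mitotic gene in tumor-like cells (x axis), with points for edgeR's estimate and bars for its 95% interval over 10 libraries. Every bar crosses 0, from Dtl at -0.35 to Cdt1 at 0.26.

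All kept cells together are mostly tumor-like, but the share differed between libraries. In batch 2 it was lowest in KO 2+3 (4817 of 6591 cells) and highest in WT 4 (8693 of 9398). In batch 1 it was 672 of 1194 in WT and 472 of 968 in KO. The part of this mix in the values that follow was not tested. In all kept cells the 5 members with the smallest p all had values below 0. Hmmr was at 66.8 and 70.3 in batch 1, and in batch 2 at 85.0, 70.7, 77.7 and 84.8 in WT and at 64.0, 62.4, 77.9 and 61.5 in KO. Of the KO libraries of batch 2, 3 lay below all WT libraries of that batch and KO 4 among them. Its log2 fold change was -0.26 (SE 0.113, edgeR adjusted p = 0.546). Dtl had -0.38 (SE 0.167, adjusted p = 0.546), Hells -0.24 (SE 0.111, adjusted p = 0.559), Anln, the contractile ring protein anillin, -0.22 (SE 0.114, adjusted p = 0.593) and Ttk -0.34 (SE 0.187, adjusted p = 0.617). None passed the threshold. In all, 19 members had a value above 0 and 34 below, and the median was -0.04 for each list, beside -0.00 for all genes tested. Where cells were counted by library total with no TMM factor, the medians were 0.03 for the S-phase and 0.02 for the mitotic genes, beside 0.06 for all genes.

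Within batch 2 alone, with 4 libraries a group, the tumor-like levels of 51 members overlapped between WT and KO. Over the 11605 genes tested in these cells the groups did not overlap for 3.26%. The other 2 members were Exo1, a nuclease of mismatch repair, and Cenpe, the kinesin that carries chromosomes to the spindle equator, and both were chosen here after their values were seen. Exo1 was at 12.2, 13.1, 14.4 and 13.5 in WT and at 10.6, 10.3, 11.9 and 11.5 in KO, all KO below all WT. Cenpe was at 93.8, 96.7, 104 and 89.9 in WT and at 107, 105, 106 and 114 in KO, all KO above all WT. Over both batches their edgeR log2 fold changes were -0.22 and 0.14 (adjusted p = 0.846 for both). In all kept cells the groups of all 53 members overlapped, where 4.41% of all genes tested had groups that did not.

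The genes that steer the cycle gave 0 calls as well. The 59 further genes of the pathway comprised 9 cyclins and CDKs, 7 CDK inhibitors, 10 genes of the Rb and E2F family, 7 of mitotic transcription, 8 of the checkpoint, 4 of the APC/C and 14 of replication. In tumor-like cells 56 of them were tested. All but 3 of the CDK inhibitors were tested, and those 3 were Cdkn1c, Cdkn2a and Cdkn2b. An unadjusted p under 0.05 was reached by Ccnd3, which encodes cyclin D3 (log2 fold change 0.68, SE 0.201, edgeR adjusted p = 0.825), and by Cdk4, its kinase (0.33, SE 0.138, adjusted p = 0.825). Of the cyclins and CDKs 7 of 9 had a value above 0, with a median of 0.14. The Rb and E2F family had a median of 0.04 and mitotic transcription, with Foxm1 and Mybl2, of -0.02.

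Across cell classes the members were highest in tumor-like and T-like cells. In T-like cells the S-phase genes together were at 1342 and 1426 CPM in batch 1, and at 2411 ± 617 in WT and 2179 ± 407 in KO libraries of batch 2 (SD, n = 4 each). The mitotic genes were at 2516 and 2429 in batch 1, and at 2269 ± 623 and 2229 ± 343 in batch 2. In the same library the T-like S-phase level was 92.9% to 175% of the tumor-like level and above it in 7 of 8 libraries of batch 2 and in both of batch 1. The T-like mitotic level was 71.9% to 134% of the tumor-like level. RNA of tumor cells was measured alongside through 5 marker genes of tumor-like cells, Cdh13, Esx1, Aebp1, Fmnl2 and Pvt1. Fmnl2 was also seen in myeloid-like clusters and Aebp1 in fibroblast-like clusters. Their level in another class therefore need not be RNA of tumor cells. Their summed level in T-like cells was 2.83% and 3.64% of that in tumor-like cells in batch 1 and 12.002% to 39.5% in batch 2. A further estimate of free RNA, the summed level of markers of other cell classes as a percentage of that in barcodes with at most 50 UMIs and held to at most 100%, was 52.9% to 100% in T-like cells (100% in the WT library of batch 1 and in WT 4) and 5.31% to 13.96% in tumor-like cells. The part of RNA from other cells in the T-like levels cannot be told from these measures, which differ.

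By gene, 15 members were above their tumor-like level in the T-like cells of both batches and 13 were below in both. The 15 included Mcm4, Mcm5, Mcm6, Pcna, Pola1, which encodes the catalytic subunit of the primase polymerase, Mki67 and Top2a. The 13 included Cdk1, Ccnb1, Cenpf, Birc5, which encodes survivin, and Plk1. These are descriptions over classes of the same libraries and carry no test.

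Myeloid-like and stromal-like cells had lower levels. In myeloid-like cells the S-phase genes were at 559 (WT) and 463 (KO) in batch 1 and at 1285 ± 172 and 1260 ± 141 in batch 2. The mitotic genes were at 595 and 935 in batch 1 and at 1460 ± 362 and 1324 ± 213 in batch 2. In both batches 48 of 53 members were below their tumor-like level, and Pcna and Mki67 were above it. In stromal-like cells the S-phase genes were at 460 and 429 in batch 1 and at 917 ± 196 and 953 ± 225 in batch 2. The mitotic genes were at 1427 and 1276 and at 906 ± 150 and 878 ± 170. Here 49 members were below in both batches, and Mki67 alone was above.

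Barcodes with at most 50 UMIs, most of them without a cell, also held the members. In batch 1 they had S-phase levels of 375 and 378 and mitotic levels of 739 and 810, and in batch 2 S-phase levels of 908 to 1519 and mitotic levels of 1078 to 1978. The 5 tumor marker genes were in myeloid-like cells at 4.73% and 4.89% of their tumor-like level in batch 1 and at 42.0% to 58.8% in batch 2, and in stromal-like cells at 21.7% to 45.9% over both batches. In batch 2 the levels of both lists were above those of the low-UMI barcodes of the same library in 8 of 8 libraries in tumor-like and in T-like cells. In myeloid-like cells they were above in 6 libraries for the S-phase and in 4 for the mitotic genes, and in stromal-like cells in 3 and in 1. The estimate from markers of other classes was 25.1% to 87.4% in myeloid-like and 8.09% to 45.2% in stromal-like cells. In stromal-like cells of batch 1 it was 8.68% in WT and 8.09% in KO. The 5 tumor marker genes stood there at 24.6% and 33.3% of their tumor-like level, so the 2 measures differ. The estimate from other classes counts doublets and misplaced cells as free RNA too. With the free RNA so estimated subtracted from each sum, 0 members were called between WT and KO in every class. Even before the subtraction only 3 members could be tested in T-like, 6 in myeloid-like and 0 in stromal-like cells. In those classes 0 calls therefore cannot tell whether free RNA matters.

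Few members had enough UMIs in these classes for the test. In T-like cells 3 of 53 were tested, Pola1, Top2a and Smc4, and 0 were called, beside 0.289% of 693 genes. Pola1 was at 145 and 104 in batch 1, at 635, 485, 656 and 226 in WT and at 351, 396, 463 and 344 in KO libraries of batch 2. The KO libraries lay within the WT range. Its log2 fold change was -0.39 (SE 0.269, edgeR adjusted p = 0.800), and that of Top2a was -0.12 (SE 0.257, adjusted p = 0.953). None of the 3 had an unadjusted p under 0.05, and DESeq2 called none of them. Of the 5 tumor marker genes 3 were tested in this class, and all had values below 0, but only 1 was called. Fmnl2, 1 of the 2 genes called here, was at -1.48 (SE 0.265, edgeR adjusted p = 0.000849), Cdh13 at -1.28 (adjusted p = 0.154) and Pvt1 at -0.60 (adjusted p = 0.530). The level of all 5 together was taken as a percentage of the tumor-like level. In batch 2 it was 24.3% to 39.5% in the WT and 12.002% to 30.1% in the KO libraries, and the groups overlapped. In batch 1 it was 2.83% in WT and higher, at 3.64%, in KO. The part of these markers in the values of the 3 members was not tested.

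In myeloid-like cells 6 members were tested, Slbp, Uhrf1, Pola1, Wdhd1, Top2a and Smc4, and 0 were called, beside 0% of 2028 genes. Uhrf1, which carries DNA methylation over to the new strand, was at 10.01 CPM in the WT and 12.7 in the KO library of batch 1. In batch 2 it was at 77.4, 93.1, 121 and 98.4 in WT and at 159, 149, 162 and 113 in KO, with KO 5+6 inside the WT range and the other 3 KO libraries above it. Its log2 fold change was 0.54 (SE 0.275, edgeR adjusted p = 0.784, 95% interval -0.02 to 1.11), and that of Top2a was 0.28 (SE 0.223, adjusted p = 0.876). None had an unadjusted p under 0.05 and DESeq2 called 0. In tumor-like cells Uhrf1 was at 53.8 CPM in batch 1 and 250 in batch 2. The 5 tumor marker genes in myeloid-like cells of batch 2 were at 52.0% to 58.8% of their tumor-like level in WT. In KO they were at 42.0% to 56.3%, and in batch 1 at 4.73% (WT) and 4.89% (KO). The part of RNA from tumor cells in the myeloid-like Uhrf1 values was not tested. In stromal-like cells no member was tested, and 0% of 1080 genes were called.

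With no filter on low counts all 53 could be fitted in every class, with wide intervals. Inside a 2-fold change lay 5 of 53 in T-like, 15 in myeloid-like and 2 in stromal-like cells. The classes outside the tumor-like cells could therefore hold differences of 2-fold in most members that these counts cannot show. Mki67 then had log2 fold changes of 0.60 (SE 0.470) in T-like, 1.03 (SE 0.368) in myeloid-like and -2.11 (SE 0.736) in stromal-like cells, with edgeR adjusted p of 0.706, 0.730 and 0.686. Most myeloid-like Mki67 UMIs came from batch 1, with 35 in its WT and 102 in its KO library. The 8 libraries of batch 2 together held 20. The stromal-like value rested on 23 UMIs, at 92.1, 59.5, 40.5, 41.7 and 44.7 CPM in the WT and at 18.2, 0, 20.2, 0 and 17.0 in the KO libraries. The groups did not overlap, which held for 1 of the 53 members, and for 0.4% of the 4750 genes with at least 23 UMIs and 0.254% of the 16150 with at least 1 in these cells. Mki67 is described here because it had the smallest p of the members. Aurka, a mitotic kinase and the other member of smallest p there, had 3.14 (adjusted p = 0.686), from 5 UMIs in all. In the same fits the values of Pcna were 1.16 (SE 0.688, adjusted p = 0.706) in T-like, -0.17 (SE 0.339, adjusted p = 0.930) in myeloid-like and 1.39 (SE 0.898, adjusted p = 0.686) in stromal-like cells.

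Mki67 differed from the rest of the mitotic list in how it was spread over the classes. In tumor-like cells it gave 0.671% to 1.32% of all mitotic UMIs in a library. Over the libraries of batch 1 it gave 1.31% of mitotic UMIs in tumor-like cells (95% exact binomial interval 1.18% to 1.45%), 10% in T-like cells (7.58% to 12.9%), 9.18% in myeloid-like cells (7.76% to 10.8%) and 4.07% in stromal-like cells (2.12% to 6.998%). In batch 2 the shares were 0.886% (0.827% to 0.947%), 5.60% (4.14% to 7.37%), 1.91% (1.17% to 2.94%) and 3.22% (1.62% to 5.68%). Against the tumor-like cells of the same library, the share was higher in 8 of 10 libraries in T-like, in 9 of 10 in myeloid-like and in 8 of 10 in stromal-like cells. These intervals treat each UMI as independent, although several came from the same cell. The T-like Mki67 UMIs of batch 1 were 29 in WT and 24 in KO, from 6 cells in each library. The stromal-like ones were 10 and 2, from 2 cells in each. Of the 47 T-like Mki67 UMIs of batch 2, 28 came from KO 2+3. The intervals are therefore too narrow and leave out the spread between cells and libraries. For each 100 UMIs of Top2a in batch 1 there were 8.85 of Mki67 in tumor-like cells, 63.1 in T-like and 85.6 in myeloid-like cells. Mki67 UMIs were thus few in tumor-like cells next to those of the mitotic genes counted beside them, in WT and KO alike.

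**Figure D3:**
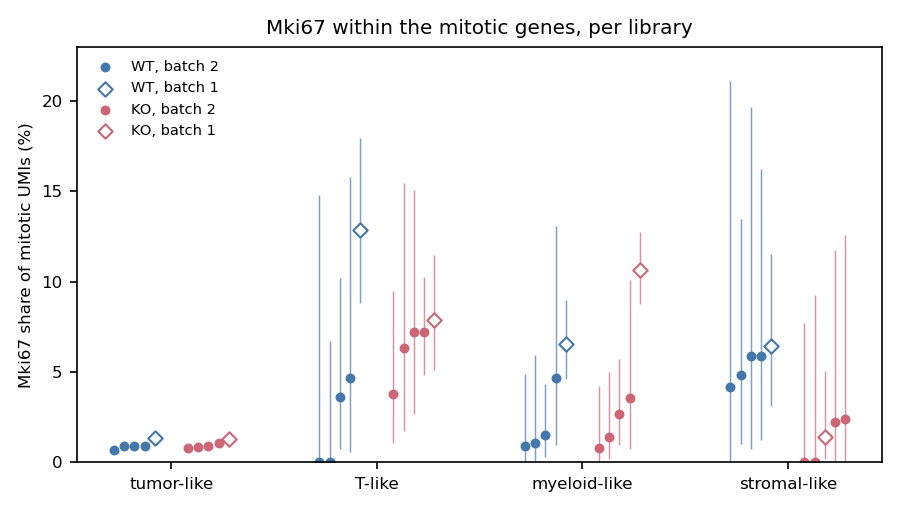
Share of the mitotic UMIs of a class that came from Mki67 (y axis, percent) in each library, by cell class (x axis), with WT in blue, KO in red, diamonds for batch 1 and bars for 95% exact binomial intervals. The intervals treat each UMI as independent. The 10 tumor-like points lie between 0.671% and 1.32%, while T-like points reach 12.9% and several points in the small classes rest on a few UMIs or lie at 0.

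Ki67 staining counts positive cells, so the share of cells with an Mki67 UMI was compared as well, after each cell was thinned to 500 UMIs. In tumor-like cells it was 1.76% in the WT and 2.36% in the KO library of batch 1. In batch 2 it was 0.990%, 0.698%, 1.12% and 0.974% in WT and 0.919%, 1.26%, 0.887% and 1.14% in KO. The means were 1.11% ± 0.395 and 1.31% ± 0.605 (SD, n = 5 each), with an exact two-sided permutation p of 0.243 within batch (adjusted p = 0.324 over the 4 classes). The smallest p these values allow is 0.0143. In T-like cells the means were 3.50% and 9.70% (n = 4 each, exact permutation p = 0.200, adjusted p = 0.324) and rested on 18 cells with a UMI among 244, after libraries WT 4 and KO 5+6 were left out with fewer than 10 cells. Thinned to 200 UMIs, with all 10 libraries, the T-like means were 1.24% and 2.00% (exact permutation p = 0.386). In myeloid-like cells the shares were 0.732% and 1.61% (n = 5 each, exact permutation p = 0.714), and in stromal-like cells 2.42% and 0.556% (n = 5 each, exact permutation p = 0.214, adjusted p = 0.324). No class passed the threshold of an adjusted p under 0.05, and none could have. The smallest p of 0.0143 in tumor-like cells does not reach it once adjusted over the 4 classes. In T-like cells, with 4 libraries a group, the smallest p was 0.05. It was 0.214 in myeloid-like and 0.0714 in stromal-like cells, where several libraries were tied at 0. The comparison therefore cannot tell whether the shares differ. No class free of dividing cells was at hand as a background for these shares. Without thinning the tumor-like means were 4.75% and 5.49%. The 500 UMI limit left out 20752 of 55623 tumor-like cells and 877 of 1131 T-like cells.

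Mitotic UMIs were seen in far more tumor-like cells than Mki67 UMIs. After thinning to 500 UMIs, 54.2% and 55.0% of tumor-like cells in batch 1 and 51.8% to 56.9% in batch 2 had at least 1 mitotic UMI. For the S-phase genes the shares were 33.6% and 37.0% in batch 1 and 51.5% to 55.4% in batch 2. As a background, 500 UMIs drawn at the levels of the low-UMI barcodes would hold a mitotic UMI in 30.9% and 33.3% of draws in batch 1 and in 41.7% to 62.8% in batch 2, and an S-phase UMI in 17.1% and 17.2% and in 36.5% to 53.2%. The tumor-like share lay above this in both libraries of batch 1 for both lists, and in batch 2 in 5 of 8 libraries for the mitotic and in 7 for the S-phase genes. The draws take 1 level for all cells, while uneven counts lower the share with a UMI at the same summed level. These counts of libraries are therefore not like for like. By summed level, tumor-like cells of batch 2 were above the low-UMI barcodes in 8 of 8 libraries for both lists. Thinned to 200 UMIs, 28.4% to 31.4% of tumor-like cells had a mitotic UMI. A share of cells with a UMI is therefore read here with its depth and background, and not as a share of dividing cells. In batch 1, 90.0% and 90.9% of the cells with an Mki67 UMI also had a UMI of another mitotic gene, against 54.1% and 54.7% of all tumor-like cells. In batch 2 these were 63.0% to 85.7% against 51.5% to 56.7%. The mitotic UMIs were also unevenly spread. The variance of the mitotic count per cell was 1.85 and 1.92 times its mean in batch 1 and 1.66 to 1.84 times in batch 2, and that of the S-phase count 1.14 and 1.18 times and 1.29 to 1.41 times. In the thinned T-like cells of batch 1, 24% and 25.9% had a mitotic UMI, and in the myeloid-like cells 18.02% and 15.01%.

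In the deeper batch 1, the cluster of highest summed mitotic level was picked in the tumor-like and in the myeloid-like cells. The cells had been grouped without the members. Histone genes, Hist1h2ae and Hist1h2ap among them, were leading genes of both clusters and are not members. The tumor-like one held 274 cells, with 4159 mitotic and 1567 S-phase CPM against 1613 and 888 in the other tumor-like cells. The myeloid-like one held 52 cells, with 4722 and 1792 against 440 and 398. All 53 members were higher in the cluster than in the rest of its class in both. Because the mitotic level picked the clusters, these ratios are descriptions and carry no test. The median ratio was 2.42 for mitotic and 1.71 for S-phase genes in the tumor-like cluster and 10.2 and 3.86 in the myeloid-like one. The 5 tumor marker genes were at 331 CPM in the myeloid-like cluster and at 6279 in the tumor-like one.

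The clusters had similar Top2a, at 714 CPM in the tumor-like and 675 in the myeloid-like one, and similar Cdk1, at 181 and 218. Birc5 was at 242 and 344, and Ube2c, the ubiquitin carrier of the APC/C, at 302 and 258. Rrm2, a subunit of the enzyme that makes deoxynucleotides, was at 93.8 and 46.3, the latter from 7 UMIs. Mki67 was at 54.7 in the tumor-like cluster and 542 in the myeloid-like one. The difference between the classes in Mki67 was thus present within the clusters that held the most mitotic RNA, where the share of mitotic UMIs from Mki67 was 1.32% (exact binomial interval 1.14% to 1.51%) and 11.5% (9.24% to 14.1%). Here too the intervals treat each UMI as independent.

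**Figure D4:**
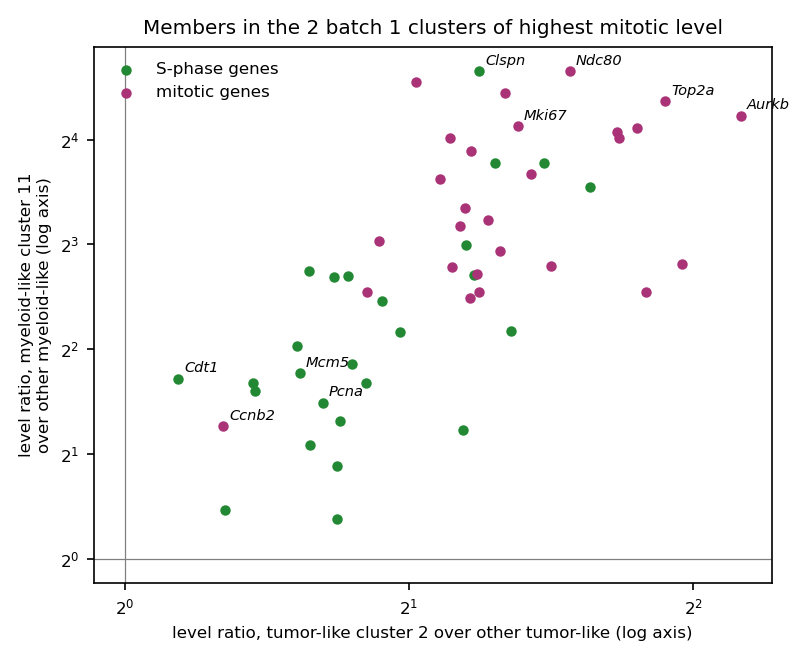
For each member, the level in the batch 1 cluster of highest mitotic level divided by the level in the other cells of its class, for tumor-like cells (x axis, log axis) and myeloid-like cells (y axis, log axis), with S-phase and mitotic genes in different colors. All 53 points lie above 1 on both axes, with mitotic genes mostly to the upper right.

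With 1 library a group in batch 1, the shares of cells in these clusters carry no test. The tumor-like cluster held 22.3% of WT tumor-like cells (95% exact binomial interval 19.2% to 25.7%) and 26.3% of KO tumor-like cells (22.4% to 30.5%). The myeloid-like one held 7.102% (4.65% to 10.3%) of the WT and 7.42% (4.94% to 10.6%) of the KO myeloid-like cells. The intervals overlap in both and cover counting error only. In batch 2 the large tumor-like clusters differed little, with mitotic levels from 1818 to 2507 CPM over 8 clusters of more than 2000 cells. Among its T-like clusters, 2 had mitotic levels of 2636 and 2454 with Mki67 at 200 and 130, and 2 had 1232 and 1652 with Mki67 at 0 (0 of 79528 UMIs, which allows up to 37.7 CPM) and 29.5.

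The batches differed more than the genotypes. In tumor-like cells 23 members were higher in batch 2 than in batch 1, 14 S-phase and 9 mitotic, and the ratio ran from 0.330 for Gins2, a subunit of the replicative helicase, to 4.65 for Uhrf1. Uhrf1 was at 53.8 CPM in batch 1 and 250 in batch 2, Wdhd1, a replication fork protein, at 42.2 and 194, and Ttk at 10.9 and 45.9. Birc5 went the other way, at 145 and 48.0, as did Cdca8, its partner in the chromosomal passenger complex, at 64.3 and 22.5. The ratio was larger for genes that span more of the genome. Of the 27 members spanning at least 28.1 kb, 18 were higher in batch 2, with a median ratio of 1.32, and of the 26 shorter ones 5 were, with a median of 0.524. Across the 53 genes, which share libraries and are not independent, Spearman's rho of the ratio with the span was 0.503 (0.471 over the 26 S-phase and 0.565 over the 27 mitotic genes), and with the exon length 0.413. Pola1, at chrX:93304767-93632155, spans 327 kb and had a ratio of 2.93, and Pcna spans 4.15 kb and had a ratio of 0.770. Each batch held both groups, and batch was a term in every fit. Depth per cell, the share of Actb (1.99% and 2.27% in batch 1, 8.77% to 17.0% in batch 2) and the members moved together between the batches, and their part in these ratios was not tested.

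**Figure D5:**
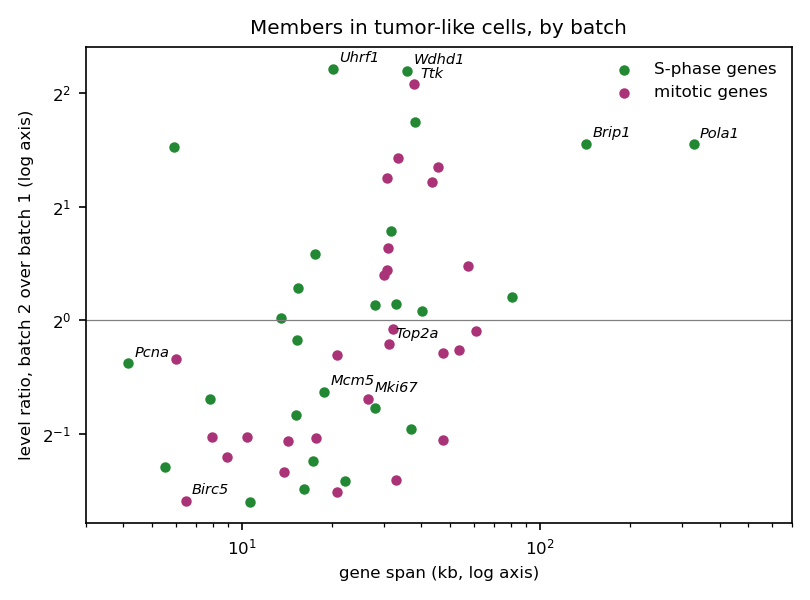
Level of each member in tumor-like cells of batch 2 divided by that of batch 1 (y axis, log axis) against the length of genome the gene spans (x axis, kb, log axis), with S-phase and mitotic genes in different colors. Of the 27 longer genes 18 lie above 1, and of the 26 shorter ones 5 do.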

How the data were processed

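Single cells of E0771 tumors were measured in 10 libraries, 5 WT and 5 EC-AGO1-KO, grouped by the sample labels. Raw UMI counts of 31053 genes in every barcode, empty droplets included, were deposited by the authors, made with Cell Ranger 7.1.0 on mm10 per the labels. Whether reads in introns were counted is not given in the sources used here. The authors' cell annotation was not used. Cells had to show 200 to 7000 genes and no more than 10% mitochondrial UMIs, and Actb was left out of all totals. Each batch was clustered separately, because a joint clustering separated the batches, on 2000 variable genes, 30 components and 15 neighbours (Leiden, resolution 1, in scanpy 1.11.5 under Python 3.11.15), without the members and the other cycle genes (114 genes kept out). A cluster was named when at least 3 markers of a class exceeded their level in the reference clusters 2-fold, seen in 2% of its cells and among its 100 leading genes, so names may differ from those of the study. Doublets were not removed.

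UMIs were summed per library and class. WT and KO were compared with edgeR 4.0.16 (quasi-likelihood test, a term for batch, TMM, filterByExpr, Benjamini-Hochberg adjusted over all genes tested) in R 4.3.3, leaving out libraries with fewer than 10 cells of the class, with DESeq2 1.42.0 as an alternative. The share of cells with an Mki67 UMI, after thinning to 500 UMIs, was compared by permuting labels within each batch (exact, two-sided). Tested on simulated counts with the means and depths of the tumor-like comparison, edgeR recovered 95% of genes changed by 1 and 100% of genes changed by 2 on the log2 scale, with 3 false calls. In the T-like comparison it recovered 90.8% of genes changed by 1, with 5 false calls. The figures were 100% with 12 false calls in the myeloid-like and 79% with 7 in the stromal-like comparison. The simulations held only genes that passed the filter. In T-like cells these were 693, of which 173 were changed, none from those with the lowest means. Only 3 members were among the 693, so the 90.8% does not cover the others. Fold changes, standard errors and adjusted p are given for Mki67, Top2a, Pcna and Mcm5 in tumor-like cells. In the other classes they are given for Top2a where it passed the filter, and for Mki67 and Pcna without the filter. They are also given for the 5 members of smallest p in tumor-like and in all kept cells and for 2 in each other class, Aurka without its standard error. Positions are those of GENCODE vM21 (GRCm38), and promoter windows those of RefSeq.

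The members, the lists and the rule for named genes were chosen with earlier results of these data known. The rule for naming clusters went through 4 versions, changed after the clusters, cell numbers and member levels pooled over libraries had been seen, and no WT and KO expression had been compared before the last version. The study used littermates that shared cages, but nothing ties single libraries to a litter, cage or day beyond the batch. Litters could not be modelled, and p-values measure the spread between libraries. Alternatives covered normalization, the filter on low counts, Actb, the batch term, batch 2 alone, the pooled libraries, limits on cells, the clustering, free RNA, thinning, a replicate block and each library left out. Thinning to 200 UMIs, and T-like cells without libraries KO 2+3 and WT 4, were chosen after seeing the data.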

Additional observations from a re-analysis of the deposited data

Results flagged for a closer look

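Of 44 groups of 4 or 5 libraries examined with Dixon's gap ratio, 8, all of 5 libraries, had 1 library far from the other 4. Chance gives about 1 group in 20 where groups are independent and of 1 batch. These groups shared cells and mixed the batches, so that figure is no yardstick for them. In 6 of the 8 the library that stood apart was the one of batch 1. The summed S-phase level was lowest in batch 1 in all kept cells, at 981 CPM in WT against 1733 to 1854 in the other WT libraries and at 1036 in KO against 1658 to 1808. In tumor-like cells it was 1056 in WT against 1754 to 1874 and 1166 in KO against 1699 to 1847. Mki67 in all kept cells was highest in the WT library of batch 1, at 37.0 CPM against 16.0 to 21.3. The share of tumor-like cells with an Mki67 UMI was highest in the KO library of batch 1, at 2.36% against 0.887% to 1.26%. Depth per cell differed between the batches along with these values, and its part in them was not tested.

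The share of cells with an Mki67 UMI was also far from the rest in 2 libraries of batch 2. In myeloid-like cells it was 3.08% in WT 5 against 0 to 0.581% in the other WT libraries, from 2 cells of 65. In stromal-like cells it was 2.78% in KO 5+6 against 0 in the other KO libraries, from 1 cell of 36.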

How the results depend on the processing

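The count of members called was 0 in every class under each of 109 alternatives, DESeq2 among them. These included each library left out in turn and, in T-like cells, the fit without libraries KO 2+3 and WT 4. In the main fit 53 members were tested in tumor-like cells, but only 3 in T-like, 6 in myeloid-like and 0 in stromal-like cells. Where no member passed the filter, 0 calls could not have come out otherwise. The fit with a replicate block, in which libraries 1 and 4 of each group shared a term, gave 0 calls in every class and tumor-like medians of 0.02 (S-phase) and -0.00 (mitotic). The numbers did not pair the libraries, since the deviations of those with the same number correlated at -0.04 to -0.28, and the labels tie the numbers to no litter or day.

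Of 172 alternative values of the list medians 158 moved by less than the spread between replicates and 14 by more. In all kept cells the medians (S-phase, mitotic) were 0.030 and 0.024 without TMM and -0.087 and -0.106 in batch 2 alone, and ranged from -0.107 to -0.015 and from -0.123 to -0.038 with each library left out. In tumor-like cells the S-phase median was -0.040 in batch 2 alone and -0.048 to 0.045 with each library left out. The T-like medians of the main fit were -0.39 (S-phase, 1 gene tested) and -0.11 (mitotic, 2 genes tested). With no filter on low counts, over all members, they were 0.27 and 0.44, so both changed sign. In myeloid-like cells the medians of the main fit rested on 4 S-phase and 2 mitotic genes. In stromal-like cells no member passed the filter, so the alternatives with it gave no median there.

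Differences between KO and WT in the share of cells with an Mki67 UMI, in percentage points, changed sign 3 times and passed no threshold. In tumor-like cells the range with each library left out was -0.057 to 0.37, the lowest without the KO library of batch 1. In myeloid-like cells it was -0.094 to 1.46, the lowest without KO 2+3, and thinning to 200 UMIs gave -0.56. In T-like cells it was 4.87 to 8.37, with 0.76 when thinned to 200 UMIs and 2.33 without thinning, where all 10 libraries entered, and in stromal-like cells -2.47 to -1.34.

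Among named genes, Top2a and Mki67 alone changed sign, with values near 0. In all kept cells Top2a was 0.060 without TMM, 0.0042 with at most 5% mitochondrial UMIs, 0.0081 with at least 500 UMIs per cell and -0.10 to 0.039 with each library left out, and Mki67 -0.0065 to 0.19. In tumor-like cells without the pooled KO libraries Mki67 was -0.041 and Top2a -0.012, and with each library left out they ranged from -0.044 to 0.087 and from -0.070 to 0.11. In T-like cells Top2a was 0.24 with no filter, 0.030 without the pooled KO libraries and -0.18 to 0.027 with each library left out. The cause of these changes was not tested. Depth limits the classes other than tumor-like cells, where most members had too few UMIs for the test.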
